A study of Mus musculus with 354 samples.

Results

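Pillar and Deiters-like supporting cells were taken from single sorted cells of the neonatal mouse cochlea by their transcripts. A cell was deep when its file held at least 100000 counts, and it was a member when at least 4 of the 7 genes S100a1, Cryab, Emid1, Smagp, Prss23, Lfng and Hes5 each reached 20 CPM (the count of a gene per 1000000 counts of the cell), so the members were chosen by the measured levels of these genes. The rule found 72 members among 319 deep cells, of 354 cells in all, and left 247 other deep cells. In the CA-ERBB2 group the allele TetON-CAERBB2 was combined with ROSA-floxed-rtTA/GFP and the Cre driver Fgfr3-iCre, and the Control group was littermates that had the same driver and reporter but not TetON-CAERBB2. Both received tamoxifen (75 mg/kg) at P0 and P1, which turned on GFP and the doxycycline-dependent activator in cells with Fgfr3-iCre, then doxycycline (100 mg/kg) at P2, and GFP+ cells were sorted at P3. CA-ERBB2 is an active form of the growth factor receptor ERBB2. Fgfr3-iCre also labels cells outside the pillar and Deiters classes, cochleae of several pups were pooled, and the reads of the transgene and of endogenous Erbb2 were not told apart. Cells of 59 wells from each of 3 plates per genotype were analysed, and the plate was the replicate.

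Pillar cells and Deiters cells are the glia-like partners of the outer hair cells. Pillar cells stiffen the tunnel of Corti with bundles of microtubules and actin, and Deiters cells hold each outer hair cell from below. At birth both classes still receive Notch signals from hair cells, which act through the DNA-binding protein RBPJ on repressors such as Hes5 and the Hey genes, and pillar cells depend on the FGF receptor Fgfr3.

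The members numbered 21, 9 and 9 on the CA-ERBB2 plates 1 to 3 and 12, 8 and 13 on the Control plates 1 to 3. As a share of deep cells this was 35.6%, 15.5% and 15.5% for CA-ERBB2, and 20.3%, 22.2% and 26.5% for Control. The groups overlapped, with means of 22.2% ± 11.6 (SD, n = 3) and 23.0% ± 3.17 (SD, n = 3), and an exact two-sided permutation test over plates gave p = 1 (the smallest p that 3 plates against 3 allow is 0.1). The sign of this difference was opposite without CA-ERBB2 plate 2 (2.52 percentage points), without CA-ERBB2 plate 3 (2.52) and without Control plate 3 (0.929), and it was -7.51 without CA-ERBB2 plate 1.

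The 4 wells A12 to D12 of each plate stood apart. Their 24 cells had a median of 15538 genes detected against 4147 in the other wells, and 20 of the 24 met the rule, including all 12 of CA-ERBB2. At least 4 of 8 mesenchyme markers reached 20 CPM in 19 of these 20 members, against 8 of the 52 members from other wells, and at least 4 of 15 hair cell markers did so in 7 of 20 against 2 of 52. Why these wells differ was not tested, and values for the 52 members from other wells (27 CA-ERBB2 and 25 Control) are given below beside those for all 72 where stated. The members' totals ran from 1754723 to 4838490 counts, and the members of a plate summed to between 26336894 and 73305672. Members also had more genes detected than the other deep cells on every plate, with a median of 11592.5 against 3229 over all plates, and the part of this difference in what follows was not tested.

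The 7 rule genes chose the members, so their levels are a description. S100a1, a calcium-binding protein of supporting cells, reached the threshold in 71 of 72 members, with a median of 1774 CPM and a range from 13.3 to 14455. Cryab, a small heat shock protein, and Emid1, a secreted matrix protein, each reached it in 68. Smagp, a small membrane protein, reached it in 57, and Prss23, a secreted serine protease, in 58. Hes5, the Notch-driven repressor, reached it in 43 and Lfng, the glycosyltransferase that modifies Notch, in 38. These 2 genes were uneven across plates. Hes5 reached it in 18 of 21, 5 of 9 and 0 of 9 CA-ERBB2 members, and in 10 of 12, 3 of 8 and 7 of 13 Control members. For Lfng the cells numbered 13, 3 and 1 on the CA-ERBB2 plates and 9, 4 and 8 on the Control plates. In the 247 other deep cells the threshold was reached by 2 cells for each of Hes5 and Lfng, by 95 for S100a1 and by 89 for Cryab. Among the 52 members from other wells it was reached by 51 for S100a1, 48 for Cryab, 49 for Emid1, 40 each for Smagp and Prss23, 33 for Hes5 and 32 for Lfng. Just inside the rule, 21 cells had 4 genes at the threshold, with a median S100a1 of 445 CPM, and just outside it 21 cells had 3 genes, with a median S100a1 of 184 CPM.

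**Figure D1:**
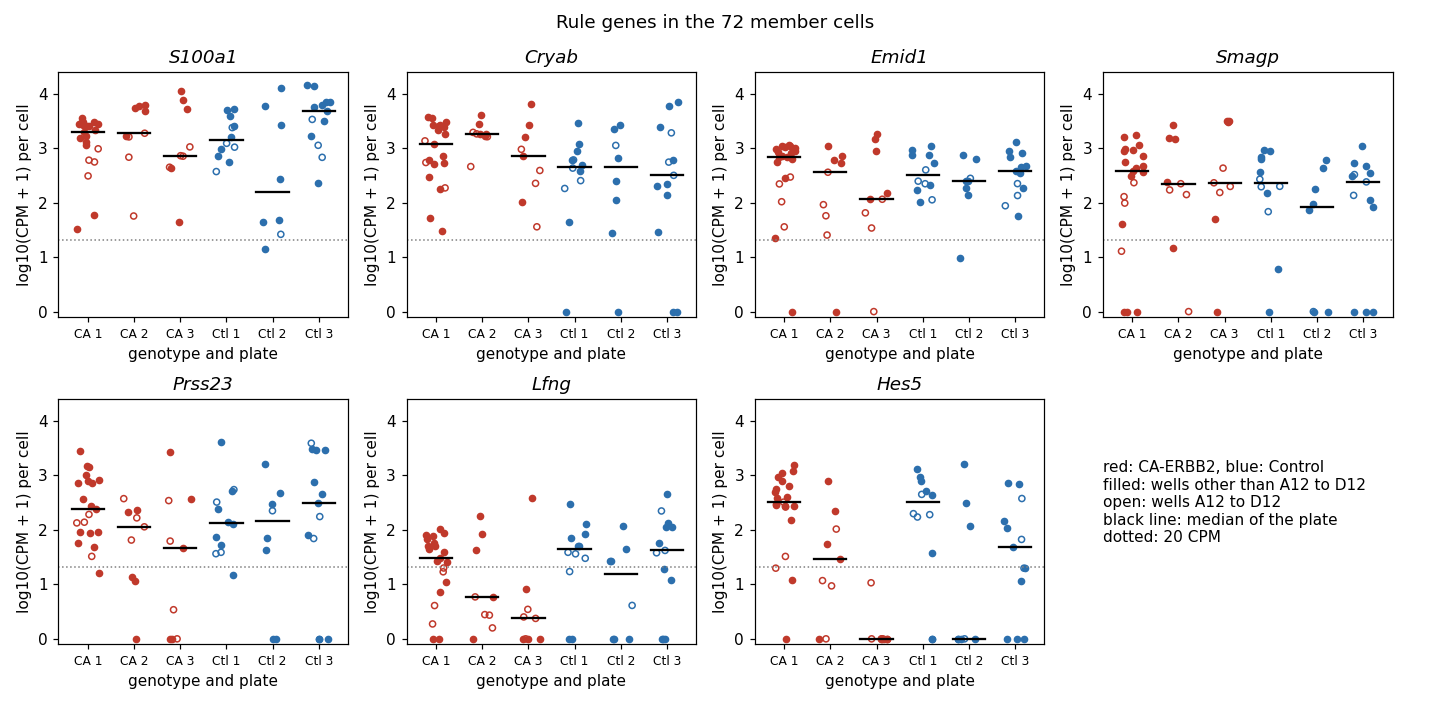
Level of each rule gene in the 72 member cells, as log10(CPM + 1) on the vertical axis, by genotype (red CA-ERBB2, blue Control) and plate, with the plate median as a black line, the 20 CPM threshold dotted, and cells of wells A12 to D12 as open circles. S100a1 was at or above the threshold in 71 of the 72 cells, while Hes5 was at 0 in 21 of them and Lfng in 15.

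The rule needs at least 4 of the 7 genes together and so helps to fix their mix, so the following counts do not show whether pillar and Deiters cells separate. All 3 of Cryab, Emid1 and Smagp reached the threshold in 53 of 72 cells, all 3 of Lfng, Hes5 and Prss23 in 26, and all 6 in 24. More pillar than Deiters genes were present in 40 cells, more Deiters than pillar genes in 5, and equal numbers in 27. No member lacked all 3 pillar genes, and 6 lacked all 3 Deiters genes. Among the 52 members from other wells, all 3 pillar genes were present in 37, all 3 Deiters genes in 21 and all 6 in 19. Across the 72 members, which share libraries and a rule that needs these genes together, Spearman's rho between Smagp and Emid1 was 0.519 and between Lfng and Hes5 0.415, whereas it was -0.168 between Smagp and Prss23. That pair was the lowest, and 20 of the 21 pairs of rule genes were positive, with a median of 0.298. Pairs did not divide by cell class, with 0.329 between Emid1 and Hes5 and 0.258 between Cryab and Emid1.

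Hes5 lies at chr4:154960923-154962371 on the plus strand and Lfng at chr5:140607320-140615545 on the plus strand (GRCm38, Gencode M21). The 250 bases before their RefSeq start sites (GRCm38.p6) are shown because these are the 2 Notch genes of the rule. Capitals mark the core letters of the RBPJ motif, searched as TGGGAA on both strands (TTCCCA on the reverse).
Hes5, chr4:154960673-154960922, plus strand: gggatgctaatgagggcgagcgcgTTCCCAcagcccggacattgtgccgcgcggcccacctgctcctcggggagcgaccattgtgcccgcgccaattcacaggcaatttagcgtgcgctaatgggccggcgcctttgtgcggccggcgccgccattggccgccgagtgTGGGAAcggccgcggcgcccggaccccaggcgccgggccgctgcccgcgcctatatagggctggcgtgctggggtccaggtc
Lfng, chr5:140607091-140607340, plus strand: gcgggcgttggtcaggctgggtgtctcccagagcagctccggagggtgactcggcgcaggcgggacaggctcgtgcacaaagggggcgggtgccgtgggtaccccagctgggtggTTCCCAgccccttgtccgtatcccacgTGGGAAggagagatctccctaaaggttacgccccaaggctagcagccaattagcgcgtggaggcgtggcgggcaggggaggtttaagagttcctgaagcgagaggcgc
Each window held 2 matches, and 21.6% of the 32851 windows of this length in the table held at least 1. A match is a description of the letters and does not show binding.

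Beyond the rule genes, the members carried further genes of pillar and Deiters cells, beside markers of other cell types given below. For each plate the mean CPM of members was set against that of the other deep cells as a log2 ratio with 1 CPM added, over 12579 genes whose means of both classes on the 6 plates averaged at least 5 CPM. On all 6 plates 162 genes (1.29%) were at least 2-fold higher in members and 30 (0.238%) at least 2-fold lower. With the wells A12 to D12 left out these were 152 (1.22%) and 121 (0.974%) of 12427, of which 115 and 27 were shared with the first set. Both counts of higher genes include rule genes, which chose the members. Leaving the rule genes out, 157 genes were higher with all members and 149 without those wells. The rule chose the cells on the same libraries, so no test was made, and the median log2 ratio over all genes was 0.29 (0.03 without those wells).

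Slitrk6, a neuronal adhesion protein needed for innervation of the inner ear, had the highest median log2 ratio, 7.63. Its mean in members was 597, 163 and 296 CPM on the CA-ERBB2 plates and 381, 57.8 and 473 on the Control plates, against 3.12, 0.954 and 0 and 0.413, 13.8 and 0.0632 in the other deep cells. Slitrk6 was thus higher in members on each plate, least so on Control plate 2. Fgfr3, whose Cre driver labelled the cells, reached 20 CPM in 58 members (80.6%) and in 27 other deep cells (10.9%), with a median log2 ratio of 4.67. Cep41, a protein of centrosomes and cilia, reached it in 57 members (79.2%) and 21 other cells (8.50%). Without the wells A12 to D12 these were 41 of 52 and 24 of 243 for Fgfr3, and 40 of 52 and 21 of 243 for Cep41. Ntf3, the neurotrophin that supports cochlear neurons, had a median log2 ratio of 5.49, but without the wells A12 to D12 its lowest plate fell to 0.09 and it no longer met the 2-fold limit on all plates. Umodl1 and the ATP-gated channel gene P2rx2 also no longer met it without those wells. The remaining high genes included Wnt7a, a secreted Wnt ligand (5.75), the Wnt receptor gene Fzd4 (4.68), Cyp26b1, which degrades retinoic acid (4.59), and Ush1c, which encodes the scaffold protein harmonin (5.36).

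Of the genes at least 2-fold lower in members on all plates, Otor, the secreted otoraplin, averaged 2697 CPM in members and 10919 CPM in the other cells (median log2 ratio -2.37), and reached 20 CPM in 77.8% of members and 69.2% of the other cells. Ogn, a small proteoglycan (-2.70), Mgp, the matrix Gla protein (-2.62), Foxc1, a transcription factor of mesenchyme (-2.45), and Ptgds, a prostaglandin synthase (-2.37), were lower on each plate. For Mgp the median was -5.71 without the wells A12 to D12.

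**Figure D2:**
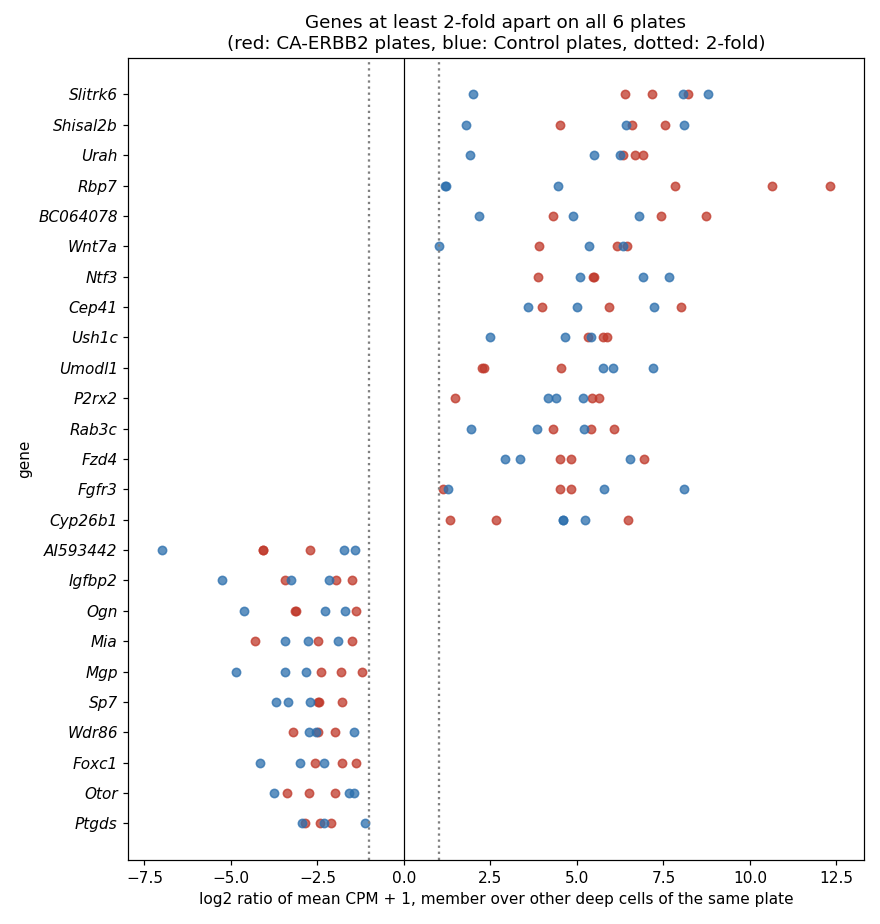
Log2 ratio of the mean CPM (with 1 CPM added) in member cells over that in other deep cells of the same plate, for the 15 leading higher and 10 leading lower genes, with 1 point per plate (red CA-ERBB2, blue Control) and dotted lines at 2-fold. Every point lies beyond its 2-fold line because that limit chose the genes, and Rbp7 has its 3 highest points on the CA-ERBB2 plates.

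By gene list, and counting the genes that passed this filter, 5 of 9 pillar markers outside the rule (of 10 listed) were at least 2-fold higher on all plates, with a median log2 ratio of 3.34 (3.49 without the wells A12 to D12), and 4 of 8 Deiters markers were, with a median of 2.90 (2.88). The lists share genes, among them Fgfr3, Igfbpl1 and the phosphatase inhibitor Ppp1r2. Serpine2, on both lists, was not among them (-0.14). Of 17 Notch genes (of 18 listed) only Hey1 (4.08) and Hey2 (4.39) met the limit. Nrarp, a Notch feedback inhibitor (4.25), and the ligand gene Jag1 (2.21) were higher on all 6 plates without reaching 2-fold on each, and Rbpj itself was at -0.26. Among 14 (of 15 listed) transcription factors of the prosensory domain Sox2 (2.89) and Prox1 (4.51) met the limit.

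Of 20 cytoskeletal genes only the keratin gene Krt18 (4.45) met the limit, while Map4, a microtubule-binding protein (3.27), and the tubulin gene Tuba1a (2.16) were higher on all 6 plates without reaching 2-fold on each. Cdkn1b, which encodes the cell cycle inhibitor p27Kip1, was the only 1 of 14 cell cycle genes that did (2.58). No hair cell marker met the limit in either direction with all members (0 of 13, of 15 listed, median -0.28), and the median was -2.63 without the wells A12 to D12, where Pou4f3 and Gfi1, transcription factors of hair cells, reached 20 CPM in 0 of 52 members. Hair cell markers were not absent there. None of the 15 reached 20 CPM in 5 of 52 members and in 115 of 243 other deep cells. The median number of these markers per cell was 1.5 and 1. Of 8 mesenchyme markers 0 were at least 2-fold lower on all plates with those wells and 2 without, and their median was -1.38 and -3.19. At least 4 of 19 greater epithelial ridge markers reached 20 CPM in 71 of 72 members and 169 of 247 other deep cells. For 4 of 9 Hensen and outer sulcus markers this held in 31 and 32 cells, and for 4 of 5 inner phalangeal and border cell markers in 20 and 41. Among the 52 members from other wells the numbers were 51, 13 and 5. The median log2 ratios of the 3 lists were -0.004, -0.30 and -0.45.

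The genotype comparison asked whether active ERBB2 changed these cells. The counts of the members of a plate were summed and the 3 CA-ERBB2 sums set against the 3 Control sums with edgeR's quasi-likelihood test. After Benjamini-Hochberg adjustment it called 0 of 17955 genes (0.00%), while 769 (4.28%) had an unadjusted p under 0.05, of which 454 were higher and 315 lower in CA-ERBB2. Without the wells A12 to D12 it called 0 of 14861, with 344 (2.31%) at an unadjusted p under 0.05. DESeq2 called 124 genes and limma, with every cell weighted equally, called 4, among them S100a6, Tmsb4x and CT010467.1. Plates did not overlap for 915 genes higher (5.10%) and 827 lower (4.61%) in CA-ERBB2. With 3 plates against 3, about these shares of genes separate without any genotype effect. The share at an unadjusted p under 0.05 was likewise no larger than that threshold gives without an effect. The genes below had the lowest unadjusted p among genes with separate plates and an average of at least 20 CPM, and none of them passed the adjustment by edgeR.

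Erbb2 checked the labels. The member sums held 228, 64.2 and 90.5 CPM of Erbb2 on the CA-ERBB2 plates and 9.93, 10.6 and 12.005 CPM on the Control plates. All CA-ERBB2 plates lay above all Control plates, with a log2 fold change of 3.56 ± 0.61 (SE; edgeR unadjusted p = 0.000346, adjusted p = 0.473), and 3.44 ± 1.02 without the wells A12 to D12 (adjusted p = 1.00). In the 52 members of other wells it reached 20 CPM in 17 of 27 CA-ERBB2 cells and 5 of 25 Control cells, and on CA-ERBB2 plates 2 and 3 in only 2 of 5 and 1 of 5.

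For the genes of the next paragraphs, all but Lgr6 chosen for separate plates, the CA-ERBB2 plates lay above the Control plates with all members. Numbers of cells at 20 CPM are pooled over plates unless given by plate, and are a description. Outside the wells A12 to D12, median genes detected were 11691 in CA-ERBB2 and 7711 in Control members. On plates 1 to 3 the medians were 12284, 6027 and 3734 in CA-ERBB2 and 11104.5, 6975 and 5656 in Control. Of the 27 CA-ERBB2 members there, 17 came from plate 1. The part of gene detection in these numbers was not tested. Tpd52l1, a coiled-coil protein of the tumour protein D52 family, was at 380, 637 and 754 CPM on the CA-ERBB2 plates and 41.3, 40.2 and 28.7 CPM on the Control plates. The log2 fold change of Tpd52l1 was 4.01 ± 0.46 (SE; edgeR unadjusted p = 2.1e-05, adjusted p = 0.142), and 4.72 ± 0.71 without those wells (adjusted p = 0.564). Among the 52 members of other wells Tpd52l1 reached 20 CPM in 22 of 27 CA-ERBB2 cells and 8 of 25 Control cells. Its adjusted p over the 13 alternatives ran from 1.58e-10 by DESeq2 to 1.00.

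Aebp1, a secreted protein with a carboxypeptidase-like domain, was at 255, 220 and 164 CPM in CA-ERBB2 and 12.8, 9.30 and 5.30 CPM in Control. The groups were apart on all plates, with a log2 fold change for Aebp1 of 4.54 ± 0.53 (SE; edgeR unadjusted p = 2.18e-05, adjusted p = 0.142) and of 5.58 ± 0.66 without the wells A12 to D12 (adjusted p = 0.255). Aebp1 reached 20 CPM in 21 of the 27 CA-ERBB2 members and 3 of the 25 Control members from other wells.

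S100a6, the calcium-binding protein calcyclin, was at 1749, 5150 and 3545 CPM in CA-ERBB2 and 157, 284 and 141 CPM in Control. All CA-ERBB2 plates were higher, with a log2 fold change for S100a6 of 4.17 ± 0.58 (SE; edgeR unadjusted p = 8.25e-05, adjusted p = 0.296), and 4.74 ± 0.72 without the wells A12 to D12 (adjusted p = 0.564). Its neighbour on chromosome 3 (chr3:90537254-90543151, GRCm38), S100a16, was at 460, 307 and 351 CPM against 51.2, 64.3 and 49.9 CPM, with a log2 fold change of 2.76 ± 0.40 (SE; edgeR adjusted p = 0.316), and 3.60 ± 0.63 without those wells (adjusted p = 0.829). S100a6 lies at chr3:90612882-90624181. The rule gene S100a1 lies in the same cluster at chr3:90511034-90514392.

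Akap12, a scaffold for protein kinase A, was at 358, 166 and 407 CPM in CA-ERBB2 and 42.2, 41.1 and 17.1 CPM in Control (log2 fold change 3.21 ± 0.57, SE; edgeR adjusted p = 0.473), and its log2 fold change was 4.49 ± 0.93 without the wells A12 to D12 (adjusted p = 1.00). Rbp7, a retinol-binding protein, was at 278, 1890 and 5751 CPM in CA-ERBB2 and 7.98, 4.82 and 23.3 CPM in Control (log2 fold change 7.78 ± 1.31, SE; edgeR adjusted p = 0.473), and its log2 fold change was 8.60 ± 1.52 without the wells A12 to D12 (adjusted p = 0.829). With every cell weighted equally (limma) the log2 fold change of Rbp7 was 2.77 (adjusted p = 1.00). It reached 20 CPM in 12 of the 27 CA-ERBB2 members from other wells, 7 of 17, 3 of 5 and 2 of 5 by plate, and in 5 of the 25 Control members. The Lgr5 relative Lgr6, a receptor of progenitor cells, had an unadjusted p of 0.0109 in edgeR (log2 fold change 2.46 ± 0.75) and reached 20 CPM in 21 of 27 CA-ERBB2 and 4 of 25 Control members from other wells. It was the only 1 of 13 Wnt and Lgr5 progenitor genes with an unadjusted p under 0.05 in edgeR. The lowest edgeR adjusted p of that list was 0.973, and its median log2 fold change was -0.19 (0.09 without the wells A12 to D12). Plates were apart for 1 of its genes higher and 2 lower in CA-ERBB2.

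**Figure D3:**
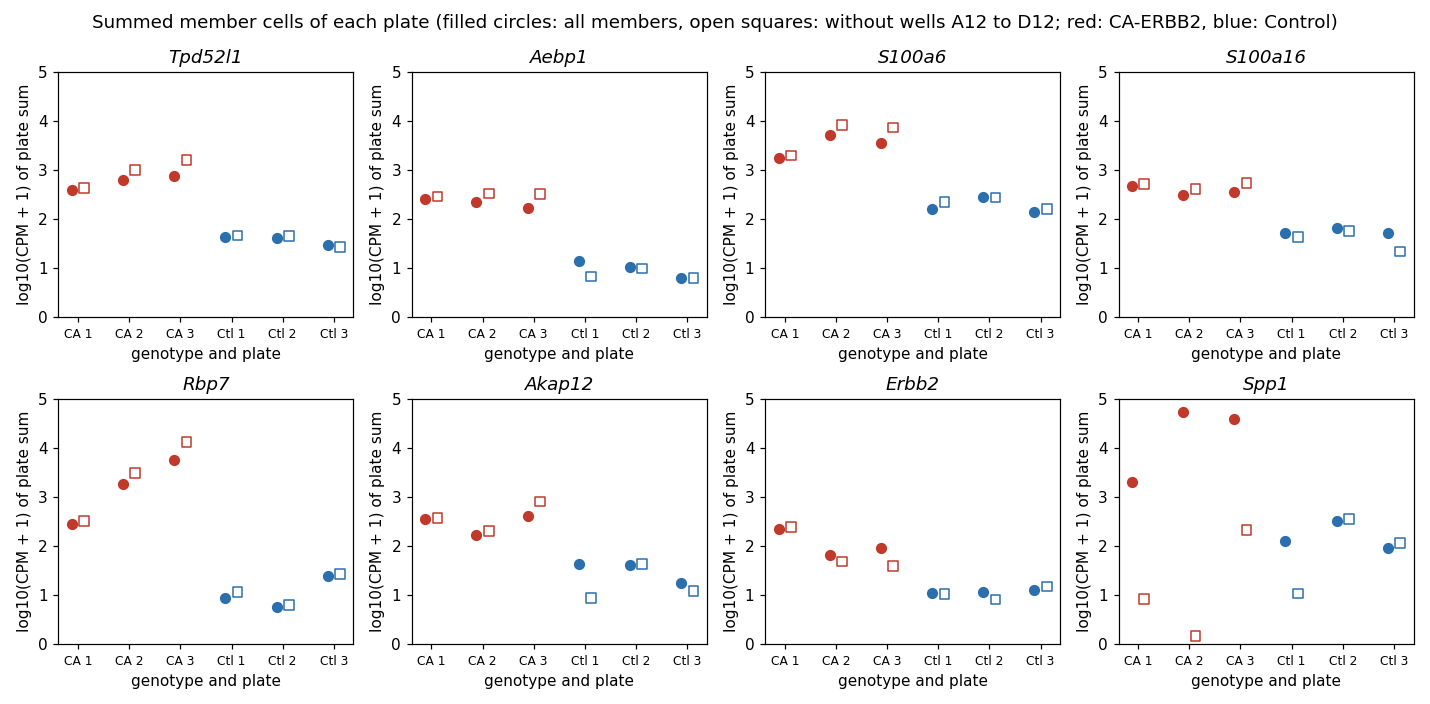
Level of 8 genes in the summed member cells of each plate, as log10(CPM + 1), by genotype (red CA-ERBB2, blue Control), with all members as filled circles and without the wells A12 to D12 as open squares. The 3 CA-ERBB2 plates lie above the 3 Control plates for the first 7 genes with either set of cells, whereas Spp1 does so with all members only.

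The genes above were chosen by a low p in the member sums, which favours a larger effect in members than in other cells. The unadjusted p-values below for such a difference therefore tend to be low from this choice alone. The same genes were also compared between genotypes in the other deep cells. There the log2 fold change was 0.71 for Tpd52l1, 0.53 for Aebp1, -0.43 for S100a16, -1.05 for Akap12 and -4.53 for Rbp7, and 2.03 for S100a6. Rbp7 was near the floor in these cells, at 20 CPM in 2 of 247 and with a mean of 0.966 CPM. Its value of -4.53, and its part in the test below, therefore rest on few cells. The test of the difference between members and other deep cells (an interaction term in edgeR) called 0 of 22347 genes (0.00%), with 503 (2.25%) at an unadjusted p under 0.05, and DESeq2 called 356. Its unadjusted p in edgeR was 0.00382 for Tpd52l1, 0.00376 for Aebp1, 0.00405 for S100a6, 0.00239 for S100a16, 0.0023 for Akap12 and 0.0138 for Rbp7, so these differences did not pass the adjustment (adjusted p = 1 for each).

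Olfm1, a secreted olfactomedin, was at 22.5, 12.9 and 20.0 CPM in CA-ERBB2 and 77.0, 112 and 88.3 CPM in Control. All CA-ERBB2 plates lay below, with a log2 fold change of -2.32 ± 0.47 (SE; edgeR unadjusted p = 0.00106, adjusted p = 0.655). Olfm1 reached 20 CPM in 5 of 27 CA-ERBB2 and 16 of 25 Control members from other wells. Umodl1, Gask1a, Paqr8, Bdh2, Cipc, 4930523C07Rik, Srfbp1, Ncald and Rgcc completed the set, with log2 fold changes from -1.77 to -4.77. Umodl1 reached 20 CPM in only 3 of 27 and 4 of 25 cells, and Gask1a in 0 of 27 and 5 of 25, so their sums rest on few cells. For all 10 the direction was the same without the wells A12 to D12.

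No gene on the lists of pillar and Deiters identity was called between genotypes by edgeR. The rule chose the members of each genotype by pillar and Deiters genes, among them the Notch genes Hes5 and Lfng. A cell that had lost most of these genes would not be a member. The comparison of the identity, Notch and prosensory lists therefore cannot show whether cells kept this identity under active ERBB2. Of 10 further pillar markers 0 were called and 1, Igfbpl1, had an unadjusted p under 0.05, and their median log2 fold change was 0.04 (-0.11 without the wells A12 to D12), beside -0.07 (-0.22) over all genes tested. The median was -0.46 (-0.98 without those wells) for 8 Deiters markers, -0.21 (-0.25) for 18 Notch genes and -0.09 (0.07) for 15 prosensory transcription factors. Fgfr3 itself was at 0.15 ± 0.74 and Sox2 at -0.05 ± 0.61 (log2 fold change and SE), so that a 2-fold change lies within 2 SE of each. Smagp, a rule gene, was at 464, 785 and 1274 CPM in CA-ERBB2 and 277, 161 and 306 CPM in Control, given without a test because it chose the cells.

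For Spp1, Timp1, Mmp9 and Dmp1 the result rested on the wells A12 to D12. Spp1 encodes osteopontin, Timp1 a metalloproteinase inhibitor, Mmp9 a metalloproteinase and Dmp1 a matrix phosphoprotein related to osteopontin, and the study chose these genes on the same samples. The study also reported each of them higher in CA-ERBB2 by RT-qPCR on GFP+ cells from independent sorts. Those were bulk GFP+ cells and not cells chosen by the rule. With all members Spp1 was at 2004, 54483 and 38471 CPM in CA-ERBB2 and 129, 323 and 89.9 CPM in Control (log2 fold change 7.45 ± 1.30, SE; edgeR unadjusted p = 0.0004, adjusted p = 0.473). Of the Spp1 counts in CA-ERBB2 members, 99.9% came from the wells A12 to D12, which held 30.2% of all their counts. Without those wells Spp1 was at 7.47, 0.48 and 213 CPM in CA-ERBB2 and 9.93, 361 and 114 CPM in Control, with overlapping groups and a log2 fold change of -1.13 ± 1.75 (SE; edgeR adjusted p = 1.00). Timp1 changed sign in the same way, from 6.05 to -1.28. Serpinb2, a protease inhibitor, and Il12a, a cytokine subunit, had 0 counts in all Control members. Taking 3 counts over the Control group as the limit, the pooled counts were 2795-fold and 1077-fold higher in CA-ERBB2. This limit covers counting error only and not the spread between cells or plates. Of the Serpinb2 counts 100%, and of the Il12a counts 99.7%, were in the wells A12 to D12.

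Cells with all 4 of Spp1, Timp1, Mmp9 and Dmp1 at 100 CPM or more were 8 of the 39 CA-ERBB2 members, and all 8 were in the wells A12 to D12. Among the 27 CA-ERBB2 members of other wells there were 0, which allows a share of up to 11.1% from counting error over the pooled cells. These 27 came unevenly from the plates (17, 5 and 5), and the limit does not cover the spread between plates. Among the 136 other deep CA-ERBB2 cells there were 28 (20.6%), 2 of 38 (5.26%), 11 of 49 (22.4%) and 15 of 49 (30.6%) by plate, and among Control cells of either class there were 0. Of these 28 cells 14 had 0 rule genes at the threshold, 7 had 1 and 7 had 2. Smagp reached 20 CPM in 9 of them, and in 29 of the 135 remaining CA-ERBB2 deep cells outside those wells, members included. The counts were 6 and 67 for S100a1, 4 and 71 for Cryab, 1 and 36 for Emid1, 1 and 26 for Prss23, 0 and 18 for Lfng and 0 and 20 for Hes5. Median genes detected in the other deep cells were 9181, 2446 and 1425 on the CA-ERBB2 plates, and the part of gene detection here was not tested.

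**Figure D4:**
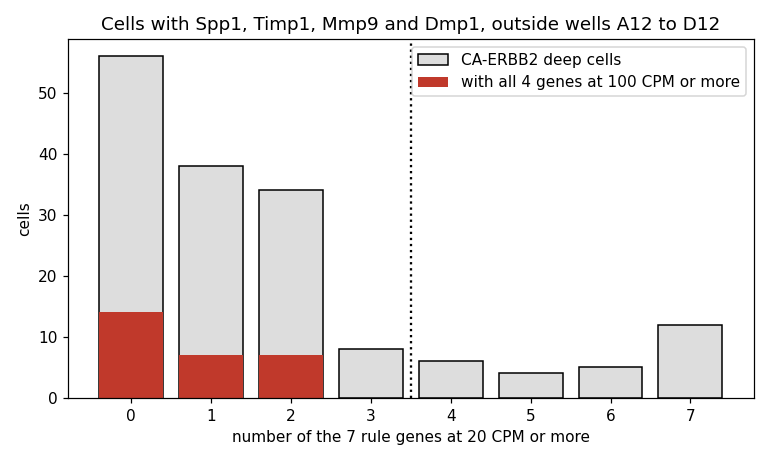
Number of CA-ERBB2 deep cells outside the wells A12 to D12 (grey bars) by how many of the 7 rule genes reached 20 CPM, and, in red, how many of them held Spp1, Timp1, Mmp9 and Dmp1 all at 100 CPM or more, with the limit of the rule dotted. The 28 cells in red lie at 0, 1 and 2 rule genes, and 0 of the 27 members hold the 4 genes.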

How the data were processed

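The authors deposited raw read counts per gene for each of 354 cells. Per the labels and the study's methods, trimmed reads were mapped with STAR (2.7.6a) to GRCm38 and counted by strand on exons with featureCounts of Subread (2.0.1). Whether counts were collapsed by molecular identifiers is not given in the sources used here, and intervals and limits cover counting error only. Deposited counts were turned into CPM per cell to choose members. For each plate, the counts of its members were added up, and the sums were compared by edgeR (4.0.16; TMM, filterByExpr, quasi-likelihood), with DESeq2 (1.42.0) and limma (3.58.1) as alternatives. Replicates are plates of pooled pups, so p-values measure the spread between plates. Named genes were the rule genes, the leading genes of the profile, the 10 lowest p in each direction with separate plates, list genes and the genes of the study. The members and lists were chosen with earlier results of these data known. On simulated counts for the member comparison (17955 genes) the test recovered 12% of 8-fold and 71% of 64-fold changes. No doublet caller was run. Some results are not reported here.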

Additional observations from a re-analysis of the deposited data

How the results depend on the processing

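For the genotype test in members, 0 calls became 124 with DESeq2, 39 with no filter on low counts and 4 with every cell weighted equally, and, in a setting chosen after seeing the data, 59 with DESeq2 without the wells A12 to D12. It stayed at 0 under the other alternatives, leaving out each plate included. In the other deep cells 1 call became 136 with DESeq2, 193 with no filter, 3 with the replicate block and 0 without those wells (also added later), and 0 to 1 when a plate was left out. The interaction went from 0 to 356 with DESeq2 and was 0 when any plate was left out. Same-numbered plates of the 2 genotypes had correlations of 0.246, 0.0371 and -0.0575 in members and of 0.233, 0.024 and 0.111 in the other deep cells. Differently numbered plates ran from -0.263 to 0.174 in members and from -0.184 to 0.0421 in the other deep cells. With 3 plates per genotype these values cannot settle whether plate numbers pair the samples. With the replicate block the count of genes called in members was 0.

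The difference in member share, -0.821 percentage points, changed sign at a threshold of 50 CPM (2.21), at 5 of 7 markers (1.93) and as a share of all wells (3.39), and ran from -7.51 to 2.52 when a plate was left out. The 162 higher genes, rule genes included, became 80 with a pseudocount of 10 CPM and 206 to 342 without a plate, 342 being without Control plate 2. The 30 lower genes became 15 with that pseudocount, 19 and 80 at 10 and 50 CPM, 10 and 135 at 3 and 5 markers, 121 without the wells A12 to D12, 16 in thinned cells and 38 to 99 without a plate, 99 being without CA-ERBB2 plate 3. The gap in median genes detected, 8363.5, was 6388.5 in thinned cells. Of single genes, Spp1 (-1.13) and Timp1 (-1.28) changed sign without those wells, and 257 other values kept direction and side of the threshold while 34 passed it, 21 of them with DESeq2. The causes were not tested.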
